A study of Mus musculus with 8 samples.

Results

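Transcripts of Dio1, the type 1 iodothyronine deiodinase, and of 8 other genes of thyroid hormone action were followed in newborn livers of mice lacking the peroxisomal enzyme Mfp2 and of wild type mice. The other genes were the plasma carrier Ttr, the hormone receptors Thra and Thrb, and the response genes Gpd2, Klf9, Bcl3, Thrsp and Hr. Every probe set that the array annotation gives to exactly 1 of these symbols was taken, which made 26 probe sets of 9 genes, out of 45037 probe sets and 18193 genes. The genes were proposed from the same comparison of knockout with wild type livers. Their values in it are therefore given as a description, without p-values. Where a probe set of these genes is said to pass a threshold, that is a description as well.

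The study used 4 mice of the genotype Mfp2 -/- (KO 1 to KO 4) and 4 of the genotype WT (WT 1 to WT 4), all aged 2 days, with 1 Affymetrix array of total liver RNA each. The labels give no strain, sex, litter or treatment, and do not say how the gene was disrupted or whether in all cells. Newborn liver also holds blood-forming cells.

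Thyroid hormone leaves the thyroid mainly as thyroxine, travels bound to plasma proteins such as transthyretin, enters cells through membrane transporters, and is turned into the active triiodothyronine by removal of an outer-ring iodine. In liver this is done by Dio1, a selenoprotein that also degrades iodothyronines, and the main receptor is Thrb. The receptors bind DNA mostly together with retinoid X receptors and turn genes on or off, and Dio1 is itself raised by the hormone in rodent liver.

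The 250 bases before the annotated start of Dio1 are shown because it had the largest difference of the 9 genes. Those of Gpd2 and of the transporter gene Slc16a10 stand beside it because their brightest probe sets were also lower in every knockout liver. The sequences are from RefSeq on GRCm38.p6, for Dio1 chr4:107307169-107307418 on the minus strand, for Gpd2 chr2:57237428-57237677 on the plus strand and for Slc16a10 chr10:40142255-40142504 on the minus strand. They are written along the gene's strand. Capitals mark the CACCC box CCACCC, a kind of site bound by Krüppel-like factors such as Klf9, the loose receptor half-site AGGNCA and the GATA site AGATAA, each searched on both strands.
Dio1: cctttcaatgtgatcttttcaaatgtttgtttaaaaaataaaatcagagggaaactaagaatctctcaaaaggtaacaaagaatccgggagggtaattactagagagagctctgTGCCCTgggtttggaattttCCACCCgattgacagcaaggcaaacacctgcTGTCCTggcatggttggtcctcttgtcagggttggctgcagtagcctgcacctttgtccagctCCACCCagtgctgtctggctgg
Gpd2: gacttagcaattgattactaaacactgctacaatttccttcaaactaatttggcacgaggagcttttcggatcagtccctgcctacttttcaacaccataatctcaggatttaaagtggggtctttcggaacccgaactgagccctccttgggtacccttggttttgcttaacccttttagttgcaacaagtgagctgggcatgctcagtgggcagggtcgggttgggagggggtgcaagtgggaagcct
Slc16a10: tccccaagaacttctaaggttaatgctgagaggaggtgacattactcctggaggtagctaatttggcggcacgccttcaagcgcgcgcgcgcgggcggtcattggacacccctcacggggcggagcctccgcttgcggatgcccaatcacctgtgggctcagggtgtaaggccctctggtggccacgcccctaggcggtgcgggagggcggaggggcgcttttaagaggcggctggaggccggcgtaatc
The Dio1 window held 2 CACCC boxes, which begin 116 and 22 bases before the start, and 2 loose half-sites on the opposite strand, 136 and 85 bases before it. Among 32841 windows of this length 28.1% held CCACCC, 51.3% held AGGNCA and 9.99% held AGATAA. The full half-site AGGTCA, one of the forms that AGGNCA covers, was in 14% of windows, its direct repeat with a spacing of 4 bases in 0.0152% and the HNF4 site CAAAGTCCA in 0.384%, and none of these 3 was in the Dio1 window. The windows of Gpd2 and Slc16a10 shown here held none of the 6 motifs. A second window of Gpd2 held 1 loose half-site. Windows were found for 6 of the 9 genes, 8 windows in all. Among the others, Bcl3 had 2 CACCC boxes and 1 of the 2 windows of Thrb had 1 full half-site, while the Klf9 window had none of the 6 motifs.

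Values are log2 expression values made by the authors with RMA, which corrects background, normalises the arrays to each other and combines the probes of a set. Array medians lay between 3.68 and 3.73. No detection calls were used, so a probe set near or below the median is not shown to be above background. The knockout was checked on Hsd17b4, the gene of Mfp2, whose brighter probe set lay between 3.25 and 4.29 in KO livers, against 8.15 to 8.97 in WT livers, as the labels say. All 7 measured hepatocyte markers were above the array median on every array. Of 8 measured erythroid markers 7 were lower in every KO liver than in any WT liver, 1 of them, Ank1, past the threshold in limma. The means of the neutrophil, macrophage, B lineage, stellate and fibroblast, endothelial and bile duct markers overlapped between the groups. KO 1, KO 2 and WT 3 had high Xist with low Y-linked transcripts, and the other 5 livers showed the reverse. With genotype in the fit, 229 probe sets differed between the lower-numbered livers (replicates 1 and 2) and the higher-numbered ones (replicates 3 and 4) at a limma adjusted p of 0.05. No label names a batch, and differences are given within each of these sets as well. In replicates 1 and 2 the Y-linked mean was 2.23 in KO 1 and 2.50 in KO 2, against 4.59 in WT 1 and 5.22 in WT 2. Within that set, genotype and this Xist and Y-linked difference cannot be told apart.

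Dio1 was much lower in the knockout livers and varied widely among the wild type ones. Its single probe set, 1417991_at, gave 3.72 in KO 1, 2.92 in KO 2, 3.13 in KO 3 and 2.87 in KO 4, against 6.77 in WT 1, 6.29 in WT 2, 6.11 in WT 3 and 4.38 in WT 4. The groups did not overlap, but WT 4 lay 1.73 below the next wild type liver and 0.66 above KO 1. The mean was 3.16 ± 0.39 in KO and 5.89 ± 1.04 in WT livers (SD, n = 4 each), a difference of -2.73 ± 0.44 (SE), which is 6.64-fold. KO 1 alone of the knockout livers was above its array's median, so this fold can be an underestimate. The difference was -3.21 in the lower-numbered and -2.25 in the higher-numbered livers, and without WT 4 it was -3.23. With the Y-linked mean as a covariate it was -2.82. In bulk liver, fewer cells of a type and less RNA per cell cannot be told apart. The hepatocyte marker mean lay between 11.90 and 12.31 in KO livers, against 11.83 to 11.96 in WT livers, and was lowest in WT 4. Its part in the Dio1 difference was not tested. The erythroid marker mean was lower in the same livers, at 7.56 to 8.27 in KO, against 8.55 to 8.67 in WT, and its part in the Dio1 difference was not tested.

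Over all 26 probe sets, 1 passed a limma adjusted p of 0.05 over the whole array, that of Dio1, where 0.762% of all probe sets passed and 0.564% passed as lower in KO. KO and WT values did not overlap in 7 of the 26, where 6.9% of all probe sets did not overlap. Of these, 6 were lower in KO (3.81% of all probe sets) and 1 was higher (3.09% of all). The genes were chosen from this contrast, so nothing is read from these counts. Means were lower in KO at 15 probe sets and higher at 11, with a median difference of -0.08, beside 0.02 over all probe sets. Of the 26, 14 were above the array median on all 8 arrays, 10 on some arrays and 2 on none.

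**Figure D1:**
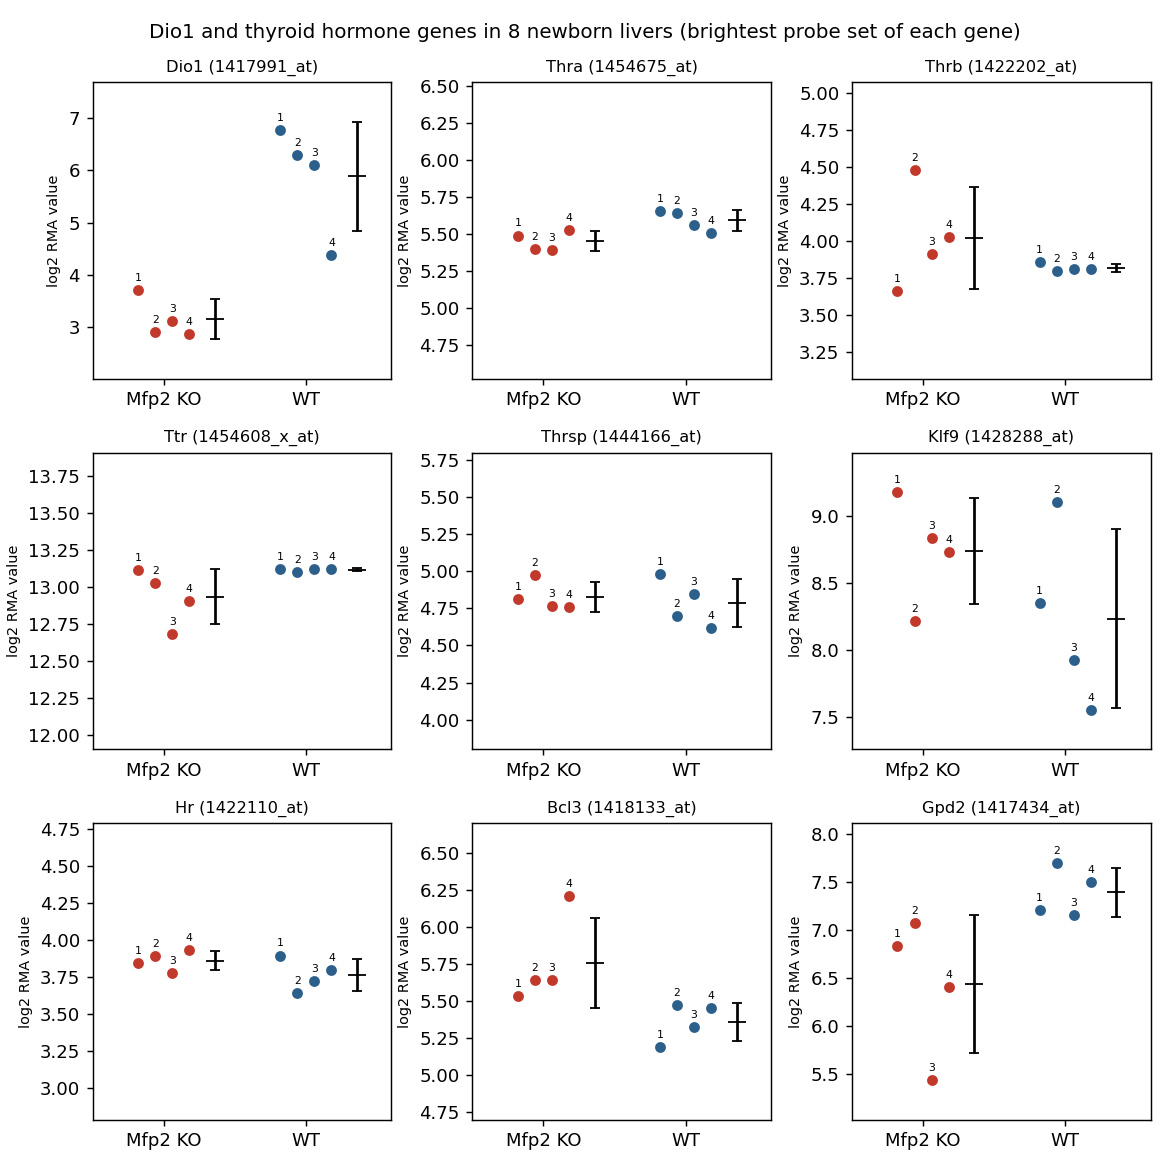
Log2 RMA value (vertical axis, which does not start at 0 and differs between panels) of the brightest probe set of each of the 9 genes in Mfp2 KO (red) and WT (blue) livers, with the replicate number at each point and the group mean ± SD (n = 4) as a bar. Dio1 and Gpd2 were lower and Bcl3 was higher in every KO liver than in any WT liver, while the values of the other 6 genes overlapped.

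**Figure D2:**
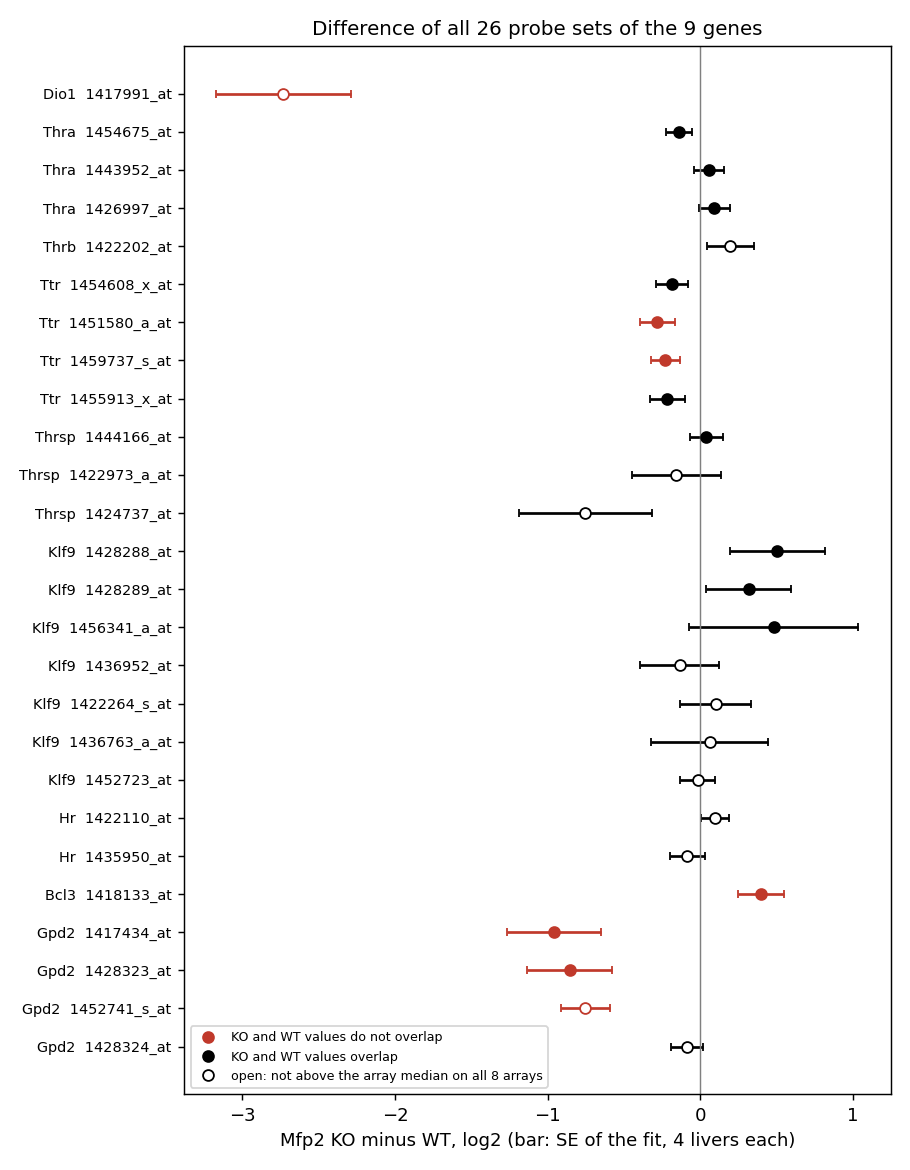
Difference between Mfp2 KO and WT livers on the log2 scale (horizontal axis, bars are the SE of the fit, 4 livers each) for each of the 26 probe sets (vertical axis), red where the groups do not overlap and open where not all arrays were above their median. The Dio1 probe set stands at -2.73 and the other 25 lie between -0.96 and 0.50.

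Ttr encodes transthyretin, which liver secretes to carry thyroxine and retinol-binding protein in plasma. It was slightly lower in the knockout on each of its 4 probe sets, by -0.28 to -0.18. Probe set 1451580_a_at gave 12.92, 13.00, 12.52 and 12.92 in KO 1 to KO 4, against 13.11, 13.05, 13.15 and 13.18 in WT 1 to WT 4. All KO values were below all WT values there and on 1459737_s_at, and KO 3 was the lowest liver on all 4 probe sets. On 1451580_a_at the difference was -0.28 ± 0.11 (SE), with -0.12 in the lower-numbered and -0.44 in the higher-numbered livers. On the brightest probe set, 1454608_x_at, it was -0.18 ± 0.11, and without KO 3 it was -0.10. These values lie near the top of the array's range, where differences may be compressed.

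The receptor gene Thra, which prevails in heart and bone, differed little between the genotypes. It gave differences of -0.14 ± 0.08, 0.06 ± 0.10 and 0.09 ± 0.10 (SE) on its 3 probe sets, all above the median on every array. The brightest, 1454675_at, gave 5.49, 5.40, 5.39 and 5.53 in KO 1 to KO 4, against 5.66, 5.64, 5.56 and 5.51 in WT 1 to WT 4. KO 4 lay above WT 4, so the groups overlapped. Nr1d1, a clock repressor gene on the opposite strand that overlaps the end of Thra, averaged 4.15 ± 0.33 in KO and 3.80 ± 0.49 in WT livers (SD, n = 4 each), a difference of 0.36 ± 0.24 (SE) with a limma adjusted p of 0.647. Where the probes of either gene lie was not analysed here.

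Thrb, the main hepatic receptor, had 1 probe set, close to the array median and so not shown to be above background. It gave 3.66, 4.48, 3.91 and 4.03 in KO 1 to KO 4, against 3.86, 3.80, 3.81 and 3.81 in WT 1 to WT 4. KO 2 was the highest and KO 1 the lowest of all livers, so the WT values lay inside the KO range. The difference was 0.20 ± 0.15 (SE), and 0.05 without KO 2.

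Gpd2 was lower in the knockout on 3 of its 4 probe sets with no overlap. It encodes the mitochondrial glycerol-3-phosphate dehydrogenase, which passes electrons from cytosolic NADH to the respiratory chain and is a classical thyroid hormone target of rat liver. Its brightest probe set, 1417434_at, gave 6.83, 7.07, 5.43 and 6.41 in KO 1 to KO 4, against 7.21, 7.70, 7.16 and 7.50 in WT 1 to WT 4. KO 3 lay 0.98 below the next liver, and the groups were 0.08 apart. The difference was -0.96 ± 0.31 (SE), which is 1.94-fold, and -0.62 without KO 3. It was -0.51 in the lower-numbered and -1.41 in the higher-numbered livers. On 1428323_at it was -0.86 ± 0.28 and on 1452741_s_at -0.75 ± 0.16, but the last was above the median on 2 arrays only, both WT. The fourth probe set was below the median on all arrays and gave -0.08 ± 0.10. The erythroid marker mean moved the same way, and its part in the Gpd2 difference was not tested.

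Klf9 varied widely among livers of the same genotype. It encodes a Krüppel-like transcription factor that thyroid hormone and glucocorticoids raise, and that acts on the mouse Dio1 promoter together with HNF4A and GATA4. Of its 7 probe sets 3 were above the median on all arrays. The brightest, 1428288_at, gave 9.17, 8.22, 8.83 and 8.73 in KO 1 to KO 4, against 8.35, 9.10, 7.93 and 7.55 in WT 1 to WT 4. KO 1 and WT 2 were the highest livers and WT 4 was the lowest on each of these 3 probe sets. On 1456341_a_at the livers ran from 6.90 to 8.29 in KO and from 5.65 in WT 4 to 8.39 in WT 2. Differences were 0.50 ± 0.31, 0.32 ± 0.28 and 0.48 ± 0.56 (SE) on the 3 probe sets, with overlapping groups. On 1428288_at the difference was -0.03 in the lower-numbered and 1.04 in the higher-numbered livers, and 0.28 without WT 4. The 4 dimmer probe sets lay between -0.13 and 0.10.

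**Figure D3:**
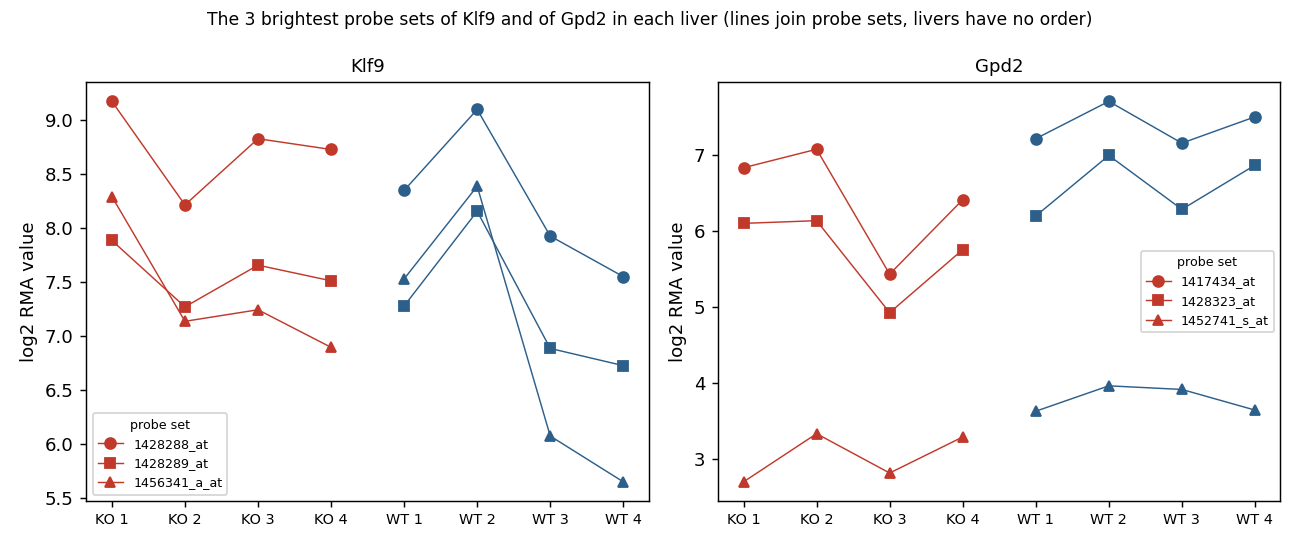
Log2 RMA value (vertical axis, which does not start at 0) of the 3 brightest probe sets of Klf9 (left) and Gpd2 (right) in each Mfp2 KO (red) and WT (blue) liver (horizontal axis), where lines only join the values of a probe set. For Klf9 the livers KO 1 and WT 2 are highest and WT 4 is lowest on all 3 probe sets, while for Gpd2 each of the 3 lies lower in every KO liver than in any WT liver.

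Bcl3 was higher in all knockout livers. It encodes a nuclear protein of the IkappaB family that partners NF-kappaB subunits, and responds to thyroid hormone in mouse liver. Its probe set gave 5.53, 5.64, 5.64 and 6.21 in KO 1 to KO 4, against 5.19, 5.47, 5.32 and 5.45 in WT 1 to WT 4. KO 4 stood 0.57 above the next liver, and KO 1 lay 0.06 above WT 2. The difference was 0.40 ± 0.15 (SE), which is 1.32-fold, and without KO 4 it was 0.25.

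Hr and 2 of the 3 probe sets of Thrsp were dim, and the groups overlapped on every probe set of both genes. Thrsp, known as Spot 14, is a lipogenic protein whose transcript thyroid hormone and carbohydrate raise in rat liver. On 1422973_a_at it gave 3.57, 3.32, 3.47 and 3.26 in KO 1 to KO 4, against 3.55, 4.54, 2.88 and 3.27 in WT 1 to WT 4. WT 2 alone was above its array's median there and on 1424737_at, where it reached 4.72 and the other 7 livers lay between 2.18 and 3.38. The differences of these 2 probe sets were -0.15 ± 0.29 and -0.75 ± 0.44 (SE). The probe set of Thrsp that was above the median on all arrays, 1444166_at, differed by 0.04 ± 0.11. Hr, a corepressor that thyroid hormone raises in rodent brain, had 2 probe sets with values between 3.53 and 3.93 in KO and between 3.64 and 3.98 in WT livers, and differences of 0.10 ± 0.09 and -0.08 ± 0.11 (SE).

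Beyond the 9 genes, 69 others of hormone transport, metabolism, receptor function and response, and of the selenoproteins to which Dio1 belongs, were tested in the fit over all probe sets, each by its brightest probe set. Of these 1 fell, 0 rose and 68 did not pass a limma adjusted p of 0.05. That is 1.45% of the 69, beside 1.15% of all 18193 genes (0.841% lower and 0.308% higher in KO). At an unadjusted p under 0.05 there were 19, where 14.6% of all genes had such a p. The groups did not overlap in 5 of the 69, where they did not in 8.61% of all genes. The median difference was -0.04, beside 0.01 over all genes. The lists were chosen with earlier results of these data known, so nothing is read from these counts.

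The gene that fell was Slc16a10, a membrane transporter of aromatic amino acids that also carries iodothyronines. Its brightest probe set, 1436368_at, gave 6.15, 6.28, 6.05 and 5.78 in KO 1 to KO 4, against 7.03, 6.85, 7.13 and 7.11 in WT 1 to WT 4, and the groups did not overlap. The difference of -0.97 ± 0.12 (SE), 1.96-fold, had a limma adjusted p of 0.0204. A second probe set of the gene, 1434592_at, fell by 0.82 on the log2 scale (limma adjusted p 0.048), and the 2 dimmer ones gave -0.20 and -0.25 with overlapping groups.

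In the lower-numbered livers the difference of 1436368_at was -0.73 (limma adjusted p 0.998), and in the higher-numbered ones it was -1.21 (limma adjusted p 0.0335). The call was lost without KO 3 (limma adjusted p 0.056), KO 4 (0.0614), WT 3 (0.0874) or WT 4 (0.0807), with differences between -0.96 and -0.88. On 1436368_at the KO livers had the same order as in the erythroid marker mean, KO 2 the highest, then KO 1, KO 3 and KO 4. The WT livers shared their order as well, WT 3 the highest, then WT 4, WT 1 and WT 2. On 1434592_at the KO order was the same, but WT 1 (6.43) lay above WT 4 (6.29). Of the 8 erythroid markers the probe set of Hba-a1 was below the median on all arrays. The part of erythroid cells in the Slc16a10 difference was not tested.

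**Figure D4:**
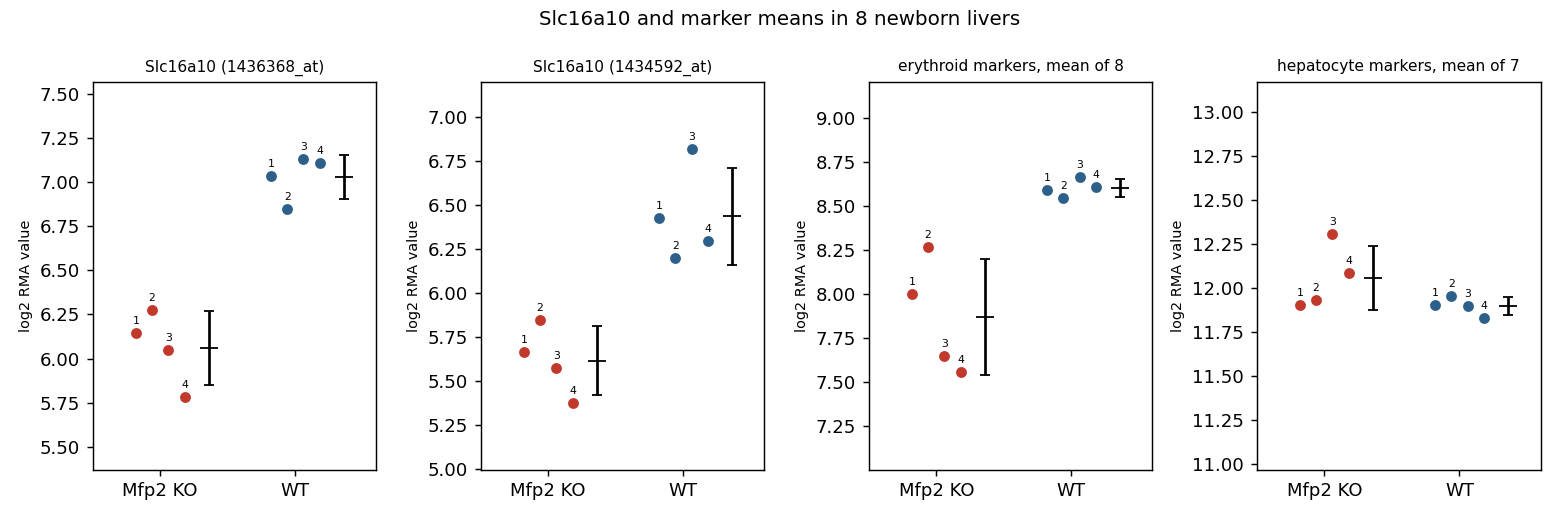
Log2 RMA value (vertical axis, which does not start at 0) of the 2 brightest probe sets of Slc16a10, of the mean of 8 erythroid markers and of the mean of 7 hepatocyte markers in Mfp2 KO (red) and WT (blue) livers, with the replicate number at each point and the group mean ± SD (n = 4) as a bar. Slc16a10 and the erythroid mean were lower in every KO liver than in any WT liver, and the hepatocyte means overlapped.

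The other 8 measured genes of hormone uptake did not pass in limma, and the median over all 9 was 0.01. Slc7a5, the light chain of an amino acid exchanger that takes up iodothyronines, lay between 6.39 and 6.73 in KO and between 6.48 and 7.92 in WT livers, a difference of -0.77 ± 0.25 (SE) with a limma adjusted p of 0.248. WT 2 lay among the KO values, and without it the difference was -1.03 with a limma adjusted p of 0.0387. Leaving out the WT liver that overlaps favours a larger difference, so nothing is read from that p. Without WT 2 the probe sets past the threshold were 489 over the whole array, against 343 with all livers. Slc7a5 passed in no other alternative. Slc3a2, the heavy chain of the same exchanger, differed by -0.24 ± 0.10 (adjusted p 0.401).

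Of 7 genes of hormone conversion, conjugation and binding other than Dio1 and Ttr, 0 passed in limma. An unadjusted p under 0.05 was seen for 1 of them, where 14.6% of all genes had one. Sult1a1, a sulfotransferase, differed by 0.43 ± 0.17 (SE, adjusted p 0.338) and Serpina7, thyroxine-binding globulin, by 0.30 ± 0.20 (adjusted p 0.641). Iyd, which recovers iodide from iodotyrosines, differed by -0.20 ± 0.10 (adjusted p 0.53). Dio2, the other activating deiodinase, was not above the array median on any array, with 3.41 to 3.71 in KO and 3.47 to 3.62 in WT livers. It was named after its values were seen.

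Of 13 partners and cofactors of the receptors 0 passed in limma, and 3 had an unadjusted p under 0.05, where 14.6% of all genes had one. Gps2, a subunit of the corepressor complex, differed by -0.34 ± 0.10 (SE) with groups that did not overlap (adjusted p 0.185). The coactivators Ncoa3 and Ncoa2 differed by 0.27 ± 0.10 and 0.29 ± 0.12 (adjusted p 0.343 and 0.37). Of 3 regulators of the Dio1 promoter that are not among the 9 genes, 0 passed in limma. An unadjusted p under 0.05 was seen for 1 of them, beside the same 14.6%. Hnf4a, a nuclear receptor of hepatocytes, differed by 0.42 ± 0.16 (adjusted p 0.345), Gata4 by -0.06 ± 0.16 (adjusted p 0.937) and Rxra, the main retinoid X receptor of liver, by -0.00 ± 0.11 (adjusted p 0.999).

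Of 11 further genes that thyroid hormone raises in rodent liver, 7 had higher and 4 had lower means in the knockout. In limma 0 passed and 8 had an unadjusted p under 0.05, where 14.6% of all genes had one. The median was 0.36, beside 0.01 over all genes. It was 0.24 in the lower-numbered and 0.37 in the higher-numbered livers. The list was chosen with earlier results of these data known, so nothing is read from its counts or median. Fasn, the fatty acid synthase, lay between 6.79 and 7.54 in KO and between 6.44 and 6.63 in WT livers, a difference of 0.62 ± 0.15 (SE, adjusted p 0.0998). Cpt1a, which admits fatty acids to mitochondria, differed by 0.53 ± 0.17 (adjusted p 0.215). Cyp7a1, which commits cholesterol to bile acids, differed by -0.65 ± 0.19 (adjusted p 0.189). Many genes of this list are also known to answer to fatty acid and sterol sensors, whose part in these differences was not tested.

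Of 22 other selenoprotein genes measured 0 passed in limma and 2 had an unadjusted p under 0.05, where 14.6% of all genes had one. Means were higher in KO for 8 and lower for 14, with a median of -0.06. Txnrd3, a thioredoxin reductase, lay between 5.17 and 5.72 in KO and between 4.70 and 5.02 in WT livers, a difference of 0.56 ± 0.13 (SE, adjusted p 0.085). Selenoh, a nuclear selenoprotein, and Txnrd2, the mitochondrial thioredoxin reductase, differed by -0.42 ± 0.15 and -0.27 ± 0.12 (adjusted p 0.289 and 0.444). Of 7 genes that make selenocysteine and insert it into protein 0 passed in limma, with a median of -0.09. An unadjusted p under 0.05 was seen for 1 of them, beside the same 14.6%. Sars, seryl-tRNA synthetase, differed by -0.47 ± 0.13 (adjusted p 0.157), Pstk, which phosphorylates the seryl-tRNA, by -0.15 ± 0.12 (adjusted p 0.73), and Secisbp2, which binds the selenocysteine insertion element, by -0.10 ± 0.09 (adjusted p 0.746).

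**Figure D5:**
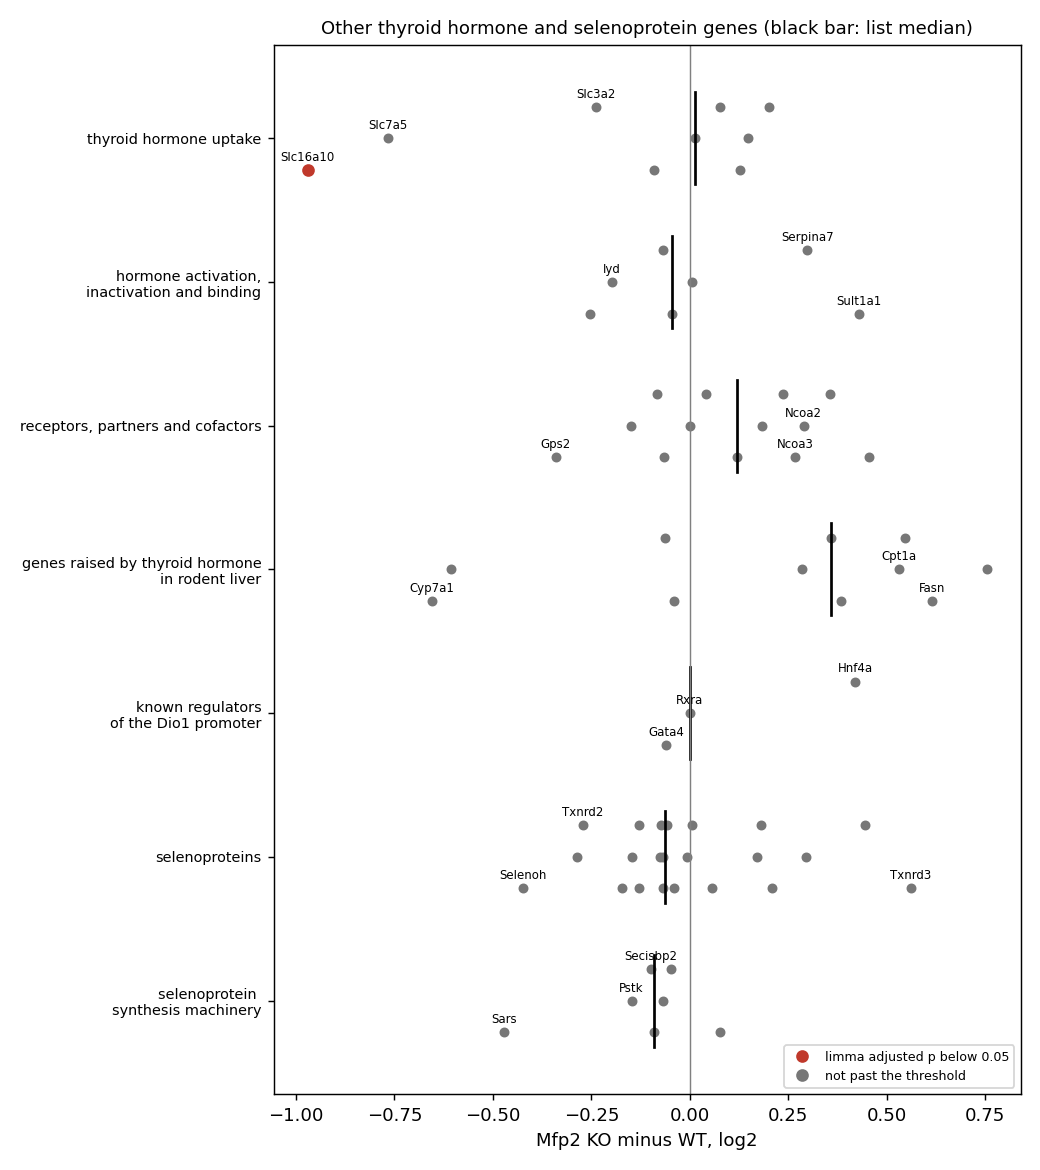
Difference between Mfp2 KO and WT livers on the log2 scale (horizontal axis) of the genes other than the 9, 1 point per gene in each of 7 lists (vertical axis, where height within a list only spreads the points), with the list median as a black bar and genes past the limma threshold in red. Slc16a10 at -0.97 is the single red point. The lists were chosen with earlier results of these data known, so nothing is read from their medians.

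Likeness to Dio1 beyond genotype was measured as the Pearson correlation of deviations from the genotype means over the 8 livers, among 11384 named genes whose mean was above the median of all probe sets. The highest were Fam53a (0.97), the histone demethylase gene Kdm4a (0.94), Macrod1 (0.92), the sorting nexin gene Snx19 (0.92) and Sdccag8 (0.92). The lowest were the matrix protein gene Matn2 (-0.96), Palb2 (-0.96), the Mediator subunit gene Med6 (-0.96), the splicing factor gene Prpf18 (-0.96) and Commd8 (-0.95). These are the extremes of many genes over few livers that share array and normalisation. Dio1 deviated most in WT 4, by -1.51, and without that liver 0 of the 10 genes were still among the 5 at their end. Among the 8 other thyroid hormone genes Klf9 came closest, at 0.69, followed by Thra at 0.65 and Thrsp at 0.60, and the rest lay between -0.43 and 0.13. Of the 11384 genes 407 were more like Dio1 than Klf9 was.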

How the data were processed

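Per the submitters' processing notes, the authors used RMA. The deposited values were read as log2 from their range. No source used here gives the software or its settings. RMA equalises array distributions, so a change in total RNA cannot be seen. Of 45101 probe sets 64 array controls were left out. Of the rest, 34945 carry 1 gene symbol in the array annotation, 932 several, and 9160 are unnamed here. The Entrez identifiers of 34741 are in the GRCm38.p6 gene table. List entries without a probe set under a single symbol were not analysed here.

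KO minus WT was estimated with lmFit and eBayes of limma 3.58.1 (R 4.3.3), two-sided, without covariates. P-values were Benjamini-Hochberg adjusted over 45037 probe sets, with a threshold of 0.05. The probe set of highest mean stood for a gene. The model was checked on simulated data with independent noise for each probe set and liver. That noise holds no sex, set or replicate differences, so the check cannot show how these affect the calls. Arrays have no read depth, and 4 against 4 limits precision. Each array was taken as 1 mouse from the design text. The labels do not describe separate litters.

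The 9 genes, lists and motifs were chosen with earlier results of these data known, and the motifs with the sequences in view. Named were the 9 genes, from each list the genes past the threshold and the 3 of lowest p, and the 5 at each end of the likeness to Dio1, without clone or predicted names. Of the list genes, Nr1d1, Dio2, Igf1, Fgf21, Apoa5 and Me1 were named outside this rule. Alternatives were a filter on dim probe sets, quantile normalization, median centring, trended robust variances, array weights, replicate and set blocks, within-set fits, a Y-linked covariate, other probe sets of a gene, Spearman correlation and leaving out each liver.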

Additional observations from a re-analysis of the deposited data

Results flagged for a closer look

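In 7 of 98 groups of 4 livers looked at, 1 liver stood apart by Dixon's criterion, which chance does in about 1 of 20 groups. Thra on 1426997_at was 4.36 in KO 3, with the other KO livers at 4.14 to 4.17. Ttr on 1451580_a_at was 12.52 in KO 3, with the others at 12.92 to 13.00. Klf9 on the dim 1436763_a_at was 4.14 in KO 1, with the others at 2.65 to 2.84. Bcl3 was 6.21 in KO 4, with the others at 5.53 to 5.64. Txnrd2 was 7.40 in WT 3, with the other WT livers at 7.63 to 7.66. Hsd17b4 on 1455777_x_at was 3.06 in KO 1, with the others at 1.73 to 1.88, and 8.78 in WT 3, with the other WT livers at 7.80 to 7.96.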

How the results depend on the processing

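The Dio1 difference kept its direction in all 17 alternatives run, between -3.23 and -2.25, and leaving out 1 liver gave -3.23 to -2.44. The Dio1 probe set itself no longer passed with the replicate block, within either set, or without KO 1, KO 2, KO 3, KO 4, WT 1 or WT 3, and with array weights 1 probe set of Gpd2 passed as well. The number of probe sets past the threshold, 343, was 914 with array weights, 527 with the mean of Y-linked genes as a covariate, 4 within replicates 1 and 2, and 9 (without WT 4) to 489 (without WT 2) when 1 liver was left out. The wider genes past the threshold, 1, were 2 with array weights (Slc16a10 and Txnrd3), 0 within replicates 1 and 2, 3 within replicates 3 and 4 (Slc16a10, Igf1 and Apoa5), and 0 to 3 when 1 liver was left out. Of the 10 genes most like or unlike Dio1, 3 stayed with Spearman correlation and 0 to 5 when 1 liver was left out. The cause of these changes was not tested, though fits within a set or without a liver have fewer samples.

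The correlations do not settle whether replicate numbers mark pairs. Same-numbered livers correlated at -0.00 to 0.27 in their deviations, with KO 4 and WT 4 the highest, and others at -0.18 to 0.17. In 2 of 4 numbers the livers correlated best with each other. With the replicate block 15 probe sets and 0 of the wider genes passed, and Slc16a10 had a limma adjusted p of 0.0614. Over its 18 alternatives that p ranged from 0.00889 to 0.998. No call changed its sign, but uncalled differences did: Klf9 (0.50) was -0.03 within replicates 1 and 2, Thrsp (0.04) was -0.01 without KO 2 or without WT 4, and other probe sets of Thra, Thrsp, Klf9 and Hr had the opposite sign, at up to 0.09, -0.75, -0.13 and -0.08 in that order of genes. Dim probe sets, Dio1 in KO livers among them, limit how large a fold can be measured.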

Other observations

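Some liver-to-liver differences recurred in genes outside the 9, named here after their values were seen. Igf1, the growth factor that liver secretes, was 9.03, 7.76, 6.79 and 7.35 in KO 1 to KO 4, against 7.53, 8.93, 8.51 and 8.38 in WT 1 to WT 4. Its highest livers, KO 1 and WT 2, were also those of Klf9. The difference was -0.61 ± 0.44 (SE, limma adjusted p 0.68), with 0.17 in replicates 1 and 2 and -1.38 in replicates 3 and 4. Fgf21, a hormone of fasting liver, was 6.76 in WT 2 and lay between 3.50 and 5.50 in the other 7 livers, and WT 2 was also the highest liver on the 2 dimmer probe sets of Thrsp. Apoa5, an apolipoprotein that lowers plasma triglyceride, was 11.14, 11.31, 10.87 and 11.02 in KO 1 to KO 4, against 10.46, 11.34, 9.57 and 9.95 in WT 1 to WT 4, so that WT 2 was the highest of the 8 livers and the other WT livers lay below all KO values. The difference was 0.75 ± 0.32 (SE, limma adjusted p 0.384), and without WT 2 it was 1.09 with a limma adjusted p of 0.0486. Leaving out the WT liver that overlaps favours a larger difference, so nothing is read from that p. Me1, the malic enzyme that supplies NADPH, differed by 0.55 ± 0.20 (SE, limma adjusted p 0.308).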
